A study of Drosophila melanogaster with 4 samples.

Results

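The subject is the run of H3K9me1-enriched regions ("clusters") along 3L, the left arm of chromosome 3 of Drosophila melanogaster. The members are the clusters of the authors' combined list that start on 3L outside the terminal 1 Mb and outside the 2 Mb next to the centromere. That leaves 21543557 of the 24543557 bp of the arm (FlyBase release 5, positions counted from 1). There are 1914 of them, or 14.6% of the 13114 clusters of that list. Position alone chose them, so their widths, scores, spacing and support were not used in the choice. The list made from ChIP replicate 1 has 789 clusters in the same stretch and the list made from ChIP replicate 2 has 777.

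The study mapped H3K9me1 by chromatin immunoprecipitation and sequencing (ChIP-seq) in whole embryos aged 14 to 16 h of the wild-type strain Oregon-R. Its 4 samples are 2 ChIP samples, and 2 inputs of unprecipitated chromatin, and the design text names a new lot of the H3K9me1 antibody. Each ChIP list was called against the input of the same number, per the labels, and no input values were analysed here. The labels do not say whether each replicate is its own collection of embryos, so their spread may be technical, and whole embryos mix all cell types.

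H3K9me1 is histone H3 carrying a single methyl group on lysine 9. The same lysine with more methyl groups is the docking site of HP1, a protein of compact, silent heterochromatin, and the single methyl group can be a step towards that state. In mammalian cells H3K9me1 has also been mapped near active genes. The stretch of 3L described here is the gene-rich euchromatic part of the arm, away from the centromere. Embryos of this age are late in embryogenesis, when organs are differentiating.

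H3K9me1 covered a small part of 3L in narrow patches. Clusters covered 7.59% of the bases of the stretch in replicate 1 and 8.34% in replicate 2, a mean of 7.96% ± 0.530 (SD, n = 2). That is 1.63 Mb and 1.80 Mb. Replicate 1 held 36.6 clusters per Mb and replicate 2 held 36.1, so the difference in coverage came with wider clusters in replicate 2 and not with more of them. The combined list, which the authors made from the same samples and which is no independent evidence, covered 20.3% of the bases with 88.8 clusters per Mb. Its coverage was 2.55-fold the mean of the replicates. Library depth is unknown, so bases outside clusters may still carry the mark.

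The level on 3L was set beside that of the other 4 long arms, each cut in the same way at its ends. The stretch of 3L was covered less than that of X, with 3L minus X at -7.50 percentage points in replicate 1 and -9.74 in replicate 2 (X itself at 15.1% and 18.1%). It was also covered less than that of 2R, with 3L minus 2R at -1.03 and -1.25 points (2R itself at 8.61% and 9.59%). It was covered more than that of 3R, by 1.48 and 1.42 percentage points (3R itself at 6.10% and 6.92%). These 3 differences kept 1 sign and exceeded their spread between replicates, with means of -8.62 ± 1.58 for 3L minus X, -1.14 ± 0.157 for 3L minus 2R and 1.45 ± 0.0456 for 3L minus 3R (SD, n = 2). The difference from 2L also kept 1 sign but was smaller, 0.922 points in replicate 1 and 0.257 in replicate 2. Its mean (0.590 ± 0.470) exceeded its spread only narrowly. An exact sign-flip permutation test over 2 replicates cannot go below p = 0.5 (two-sided), and it gave 0.5 for each of these 4 arms, so none is called different. Median scores on 3L, 0.71 in replicate 1 and 0.67 in replicate 2, were below those on X (0.83 and 0.78) and close to those on 2R (0.71 and 0.67) and 3R (0.70 and 0.67).

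**Figure D1:**
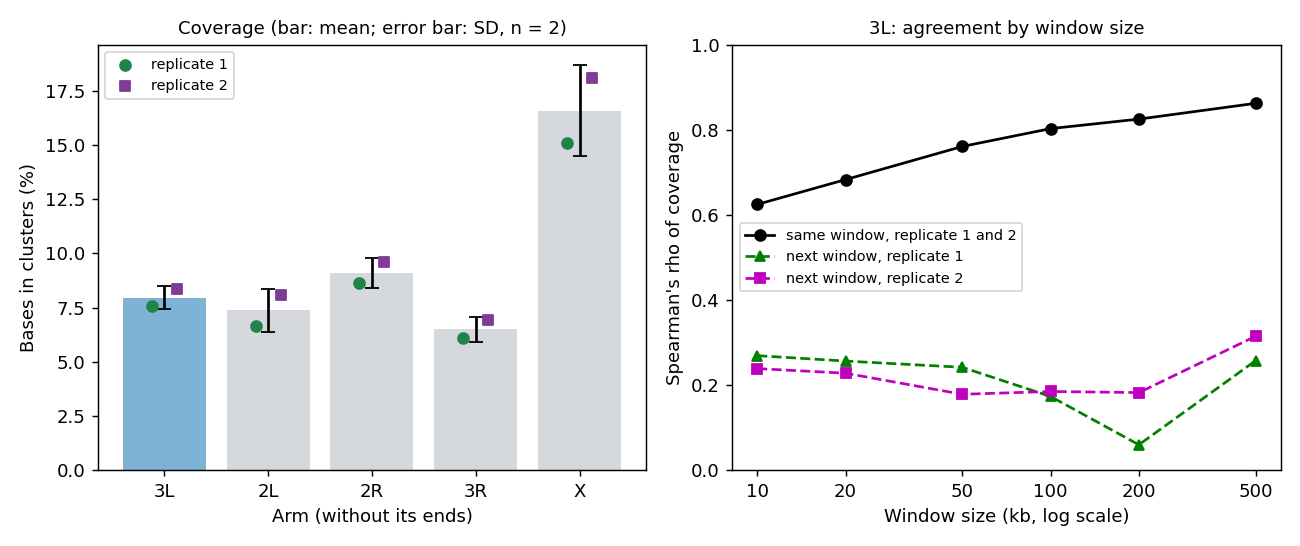
Left, the share of bases in clusters (%) on 3L and 4 other arms without their ends, with each replicate as a point and the mean ± SD (n = 2) as a bar; 3L lies at 7.59% and 8.34%, below both values of X and of 2R. Right, Spearman's rho of coverage on 3L by window size (kb, log scale), between replicates for the same window and between neighbouring windows of 1 replicate; the first climbs to 0.86 and the others stay at or below 0.31.

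The deposited lists give each cluster a score and do not state its scale, which was tested on the 3L values. With 2 raised to the score and a single scaling constant (0.982) taken out, 100.0% of the values of replicate 1 were quotients of whole numbers with denominators up to 500, to a relative tolerance of 1e-11. The share was 98.8% in replicate 2 (constant 0.978) and 92.1% in the combined list (constant 0.980). After random rescaling of each value by up to 1% the share was 0.0% in each list. Scores are therefore read as log2 ratios, and folds are 2 raised to the score.

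Enrichment on 3L was modest and tightly distributed. The median score was 0.71 in replicate 1, a 1.63-fold ratio, and 0.67 in replicate 2, a 1.59-fold ratio. The lower and upper quartiles were 0.64 and 0.77 in replicate 1 and 0.60 and 0.75 in replicate 2. Members of the combined list scored lower, with a median of 0.48 (1.40-fold) and quartiles of 0.43 and 0.54. Scores above 1, a doubling of the ratio, were rare: 11 of the 1914 members passed that mark.

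Most clusters spanned a short run of nucleosomes, and a few were several times wider. The median width was 1780 bp in replicate 1 and 1937 bp in replicate 2 (1858.5 bp ± 111.0, SD, n = 2), and no cluster of either was under 1301 bp. The widest measured 9359 bp in replicate 1 and 12358 bp in replicate 2. Replicate 2 had more wide clusters, 4.25% over 5 kb against 2.03% in replicate 1. Members of the combined list had a median width of 1794 bp, ran from 1001 to 15843 bp, and 489 of them (25.5%) were narrower than any cluster of the replicates. Wider members tended to score higher (Spearman's rho 0.38 over 1914 members, which share their libraries and their caller).

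Clusters on 3L were unevenly spaced, with close neighbours and long empty stretches. The median gap between neighbouring clusters was 11904 bp in replicate 1 and 13188 bp in replicate 2, and 4141 bp between members of the combined list. In the replicates 11.8% and 11.3% of gaps were under 1 kb, and 20.5% were in the combined list. At the other end, 234 gaps of over 20 kb (12.2% of the 1913 gaps between members) made up 40.0% of the stretch. The coefficient of variation of the gap was 1.50 in replicate 1, 1.44 in replicate 2 and 1.53 in the combined list. A long gap was only weakly followed by another: Spearman's rho of neighbouring gaps was 0.13 over the gaps of the combined list.

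Members joined by gaps under 1 kb formed short groups. Of the 1914 members, 1219 stood alone and 695 (36.3%) fell into 302 groups, none of more than 5 members. The longest group ran from 2041561 to 2066528, where 4 members took up 95.5% of 24968 bp, with 37.6% in clusters of replicate 1 and 76.2% in clusters of replicate 2. The next, from 11953093 to 11976004, held 3 members over 22912 bp, with 53.3% in replicate 1 and 67.9% in replicate 2. The third, from 22361275 to 22382528, held 5 members over 21254 bp, with 44.0% and 42.4%. Both replicates thus covered much of each, though replicate 2 covered far more of the first. The 1 kb limit and these groups were chosen after the gaps had been seen.

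The next question was how far each replicate backs the members. Replicate 1 touched 699 members (36.5%) and replicate 2 touched 714 (37.3%) by at least 1 bp. Both touched 430, or 22.5% (95% Wilson interval 20.7% to 24.4%, counting error only), against 23.8% of the combined list over the whole genome. Neither touched 931, or 48.6%, against 47.2% genome-wide, and 269 and 284 were touched by replicate 1 alone and replicate 2 alone. Support on 3L was therefore near that of the whole list. A stricter rule, with at least 50% of the member covered by each replicate, kept 309 members or 16.1%, equal to the 16.1% of the whole list.

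Members backed by both replicates were wider and stronger than those backed by neither. Their median width was 3440 bp, against 1316 bp for members touched by neither. Their median score was 0.58 (1.50-fold), against 0.46 (1.38-fold). They made up 22.5% of the members and 40.6% of the member bases. A replicate cluster has at least 1301 bp, and 449 of the 931 members touched by neither were narrower than that, against 0 of the 430 touched by both. Among the 1425 members of 1301 bp or more, 30.2% were touched by both and 33.8% by neither, and the medians of these still differed, by 0.14 in score and 1826.5 bp in width. Within a member touched by both, clusters covered a median of 69.5% of it in replicate 1 and 75.4% in replicate 2.

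Support climbed with width in each replicate. Of the 383 widest members, 2937 bp or more, 71.3% were touched by both, 80.7% by replicate 1 and 86.2% by replicate 2. Of the 381 narrowest, up to 1212 bp, 0.0% were touched by both, 5.25% by replicate 1 and 1.31% by replicate 2. All 12 members of 10 kb or more were touched by both. Support also climbed with the score once narrow members were set aside: among members of 1301 bp or more it was 81.1% by both for the 285 with the highest scores and 4.91% for the 285 with the lowest. Members and replicate clusters were called from the same samples, and a wider member is more easily touched by 1 bp. Both climbs, and the differences between members backed by both and by neither, thus follow at least in part from how the lists were made.

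**Figure D2:**
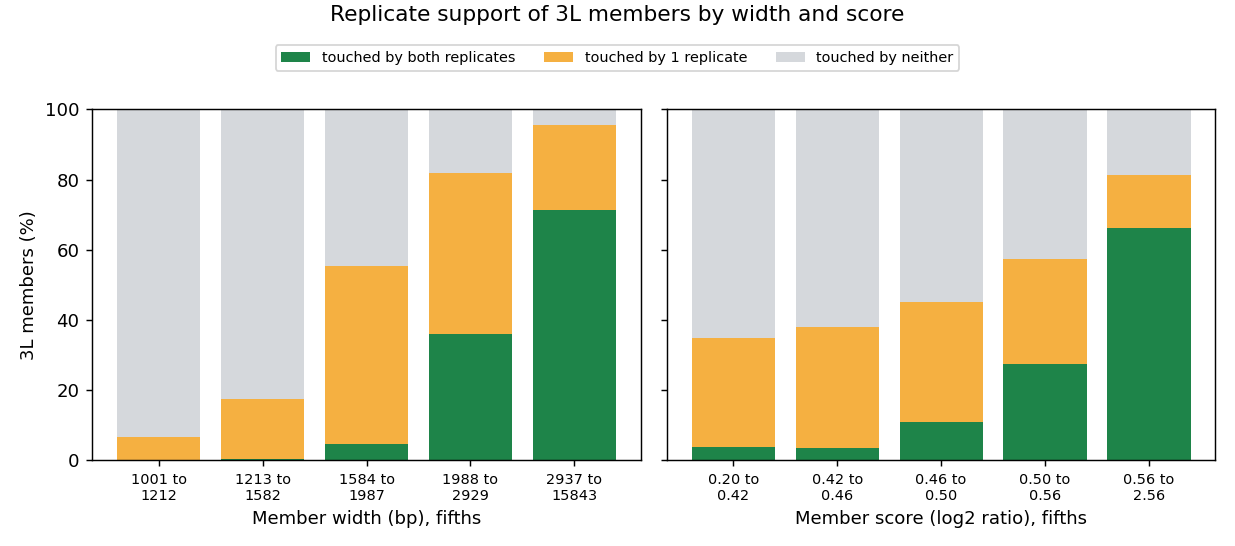
Share of 3L members (%) touched by both replicates, by 1 or by neither, in 5 groups of near-equal size by width (bp, left) and by score (log2 ratio, right). By width the share touched by both is 0.0% in the narrowest group and 71.3% in the widest; by score it is 3.92% in the lowest group and 66.3% in the highest.

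Seen from the replicates, agreement on 3L was intermediate. The replicates shared 0.929 Mb, 4.31% of the stretch, or 56.8% of what replicate 1 covered and 51.7% of what replicate 2 covered. In replicate 1, 487 clusters (61.7%) had a partner in the other replicate by at least 1 bp, and in replicate 2 this held for 459 (59.1%). Shared bases were 0.371 of those covered in either replicate (the Jaccard index), beside 0.367 for 2R, 0.390 for 2L, 0.358 for 3R and 0.424 on X cut in the same way. Clusters that touched the other replicate were wider, with medians of 1980 bp against 1572 bp in replicate 1 and 2145 bp against 1678 bp in replicate 2. A wider cluster is more easily touched by 1 bp, so this difference follows at least in part from the rule. Nearly all clusters were kept in the combined list: 7 of replicate 1 and 5 of replicate 2 touched no member.

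Where 1 cluster of each replicate overlapped exactly 1 of the other, the scores and widths of the pair were compared. There were 401 such pairs, with a median distance between centres of 251.5 bp, and 90% lay within 962 bp, a distance that the overlap rule itself limits. Scores of the pairs had a Spearman's rho of 0.49 and a Pearson's r of 0.56, and widths a rho of 0.49. These are descriptions over clusters of the same 2 libraries, with unpaired clusters left out.

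Members with at least 50% covered by each replicate were ranked by score. The highest-scoring member of which each replicate covers at least 50% ran from 11953093 to 11958311 (5219 bp), with a score of 1.16, a 2.24-fold ratio. Its clusters scored 1.20 in replicate 1 and 1.33 in replicate 2, which is the highest score of replicate 2 on the stretch. It also opens the second-longest group named above. Next came the member from 8254433 to 8258689 (score 1.06, with 1.14 in replicate 1 and 1.16 in replicate 2). It was followed by 17075264 to 17079061 (score 1.02, with 1.15 and 1.03) and 5706518 to 5711817 (score 1.01, with 1.03 and 1.23). In each of these 4 the single replicates scored higher than the combined list.

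The remaining 6 of the 10 strongest scored between 0.93 and 0.99. They ran from 20407487 to 20419003 (score 0.99), 2615039 to 2622367 (0.97) and 1287440 to 1295622 (0.97). The others ran from 4485034 to 4488604 (0.96), 12222423 to 12230820 (0.94) and 5724958 to 5729273 (0.93). All 10 were wide for 3L, at 3571 to 11517 bp, and at least 63.9% of each was covered in either replicate. Members touched by both replicates were already wide, with a median of 3440 bp. The width of these 10 thus follows at least in part from the rule that both cover them. The member from 5724958 lies close to that from 5706518, so 2 of the 10 share a neighbourhood.

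The longest members under the same 50% rule were picked by width, and the 10 strongest by score. Their greater width and mostly lower scores therefore follow from the choice. The longest ran from 13555653 to 13568737 (13085 bp, score 0.87), with 81.5% ± 5.18 of its length in clusters of a single replicate (SD, n = 2). The second, from 3484948 to 3496760 (11813 bp, score 0.73), was broken into 3 clusters in replicate 1 and 2 in replicate 2, with 78.5% ± 10.9 covered. The third, from 22485801 to 22497518 (11718 bp, score 0.71), was broken into 3 clusters in each, with 65.0% ± 15.0 covered. The fifth, from 19477735 to 19488771 (11037 bp, score 0.63), was broken into 2 in each, with 58.5% ± 3.95 covered. The fourth is the member from 20407487 already named, 11517 bp long and 1 unbroken cluster in each replicate, with 80.3% ± 1.42 covered. It is the only member among both the 10 strongest and the 5 longest. The widest member of all, 15843 bp from 2091139 to 2106981, missed this class because replicate 1 covered 45.3% of it, against 86.3% in replicate 2.

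The 3 top members of the combined list and 6 of the 11 with a score above 1 were touched by neither replicate, while 4 of the 11 were touched by both. The top member, from 16517926 to 16518929, was 1004 bp wide with a score of 2.56 (5.88-fold), and the gaps around it were 33044 and 30905 bp. The second, from 21746511 to 21747638 (1128 bp), scored 2.06 and the third, from 18040857 to 18042525 (1669 bp), scored 2.04. The fourth of this kind was wider: it ran over 4025 bp from 11608052 to 11612076 with a score of 1.26, and it is the longest of the 931 members touched by neither. The fifth, from 21236788 to 21237826 (1039 bp), scored 1.11, and 3 of these 5 were narrower than any replicate cluster. The highest score of replicate 1, 2.50 from 20327474 to 20329182, also had 0 bp in replicate 2, and the combined cluster there scored 1.28. The next clusters of replicate 1 by score lay wholly in clusters of replicate 2 (2713 of 2713 bp and 4653 of 4653 bp), and the 3 highest of replicate 2 each overlapped replicate 1 by at least 3544 bp.

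Below 1 Mb, 3L was a patchwork of covered and bare stretches. Coverage was taken in 215 consecutive windows of 100 kb. The median window had 6.74% of its bases in clusters of replicate 1 and 7.30% in those of replicate 2, and the highest had 34.7% and 42.3%. Coverage in the replicates ranked the windows alike, with a Spearman's rho of 0.80 over the 215 windows. Neighbouring windows were much less alike, with a rho of 0.17 in replicate 1 and 0.19 in replicate 2. The coefficient of variation of the window was 0.814 in replicate 1 and 0.818 in replicate 2.

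**Figure D3:**
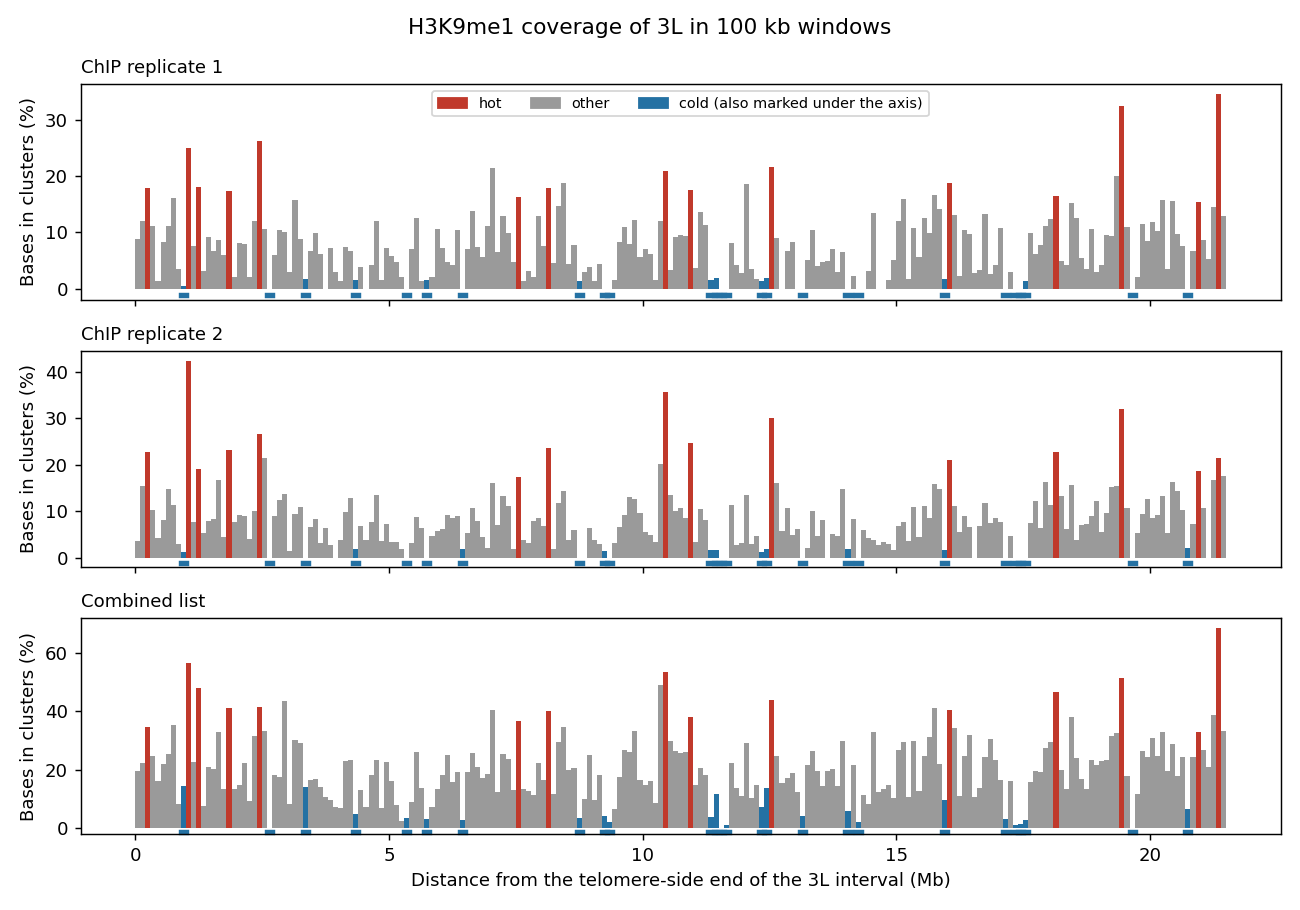
Bases in clusters (%) in each 100 kb window against the distance (Mb) from the telomere-side end of the 3L stretch, in replicate 1, replicate 2 and the combined list; hot windows are red and cold windows blue with a bar under the axis. No 2 of the 15 hot windows are neighbours, and the longest run of cold windows is 4.

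A window was called hot when its coverage was at least 2-fold that of the stretch in each replicate, and cold when it was at most 0.25-fold in each. On 3L 15 windows (6.98%) were hot, against 6.83% of 1039 windows on the 5 long arms cut in the same way, and 26 (12.1%) were cold, against 11.0%. Both shares were near those of the arms together. The 15 hot windows were covered at 15.4% to 34.7% in replicate 1 and 17.4% to 42.3% in replicate 2. The 26 cold ones were covered at 0.0% to 1.89% and 0.0% to 2.02%. No hot window had a hot neighbour, while 26 cold windows formed 19 runs. The lack of hot neighbours rests on the 2-fold limit in each replicate. Beside the hot window from 22300001, the window from 22200001 was at 1.91-fold in replicate 1 and 2.02-fold in replicate 2. On its other side, 22400001 was at 1.71-fold and 2.10-fold. In contrast, 3 hot windows bordered a cold one.

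Most windows picked in 1 replicate lay on the same side in the other. The 26 windows that reached 2-fold in replicate 1 had a median of 2.26-fold in replicate 2, and 25 of them lay above the coverage of the stretch there. The 20 windows that reached 2-fold in replicate 2 had a median of 2.34-fold in replicate 1, and all 20 lay above it. The 44 windows at or under 0.25-fold in replicate 1 had a median of 0.218-fold in replicate 2, with a highest value of 0.771. The 38 in replicate 2 had a median of 0.192-fold in replicate 1, with 1.46 as the highest. The exceptions were the window from 16100001, at 2.11-fold in replicate 1 and 0.910-fold in replicate 2, and the window from 7900001, at 1.46-fold in replicate 1 and 0.243-fold in replicate 2.

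**Figure D4:**
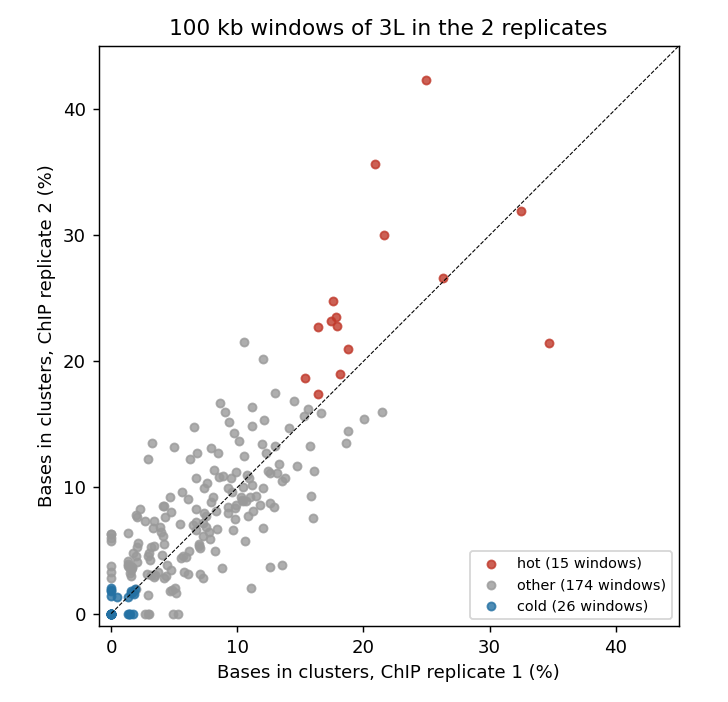
Bases in clusters (%) of each of the 215 windows of 100 kb on 3L in replicate 1 (x) and replicate 2 (y), with the dashed line marking equal values. Points rise together (Spearman's rho 0.80); the 15 hot windows lie at 15.4% or more in replicate 1 and 17.4% or more in replicate 2.

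Hot windows differed from cold ones in the number, width and support of their members. Members in hot windows had a median width of 2550 bp, against 1344 bp in cold windows and 1785.5 bp in the other windows. There were 12.8 members per hot window, 3.35 per cold window and 9.34 per other window. Both replicates touched 42.2% of the members in hot windows, 3.45% in cold windows and 21.2% in the others. Coverage by the replicates chose the windows, so width, number and support follow in part from the choice. The median score, which the choice did not use directly, was 0.51 in hot windows, 0.47 in cold windows and 0.48 in the others, a small range.

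The 5 most covered windows, ranked by the lower of the replicates, were built in different ways. The first, 20400001 to 20500000, had 32.5% of its bases covered in replicate 1 and 31.9% in replicate 2, and holds the unbroken member from 20407487. The second, 3400001 to 3500000, was covered at 26.3% and 26.6%, much of it in the member from 3484948. The third, 2000001 to 2100000, was covered at 25.0% and 42.3%; its median member was 5018 bp wide and its last member is the widest of all. The fourth, 13500001 to 13600000, was covered at 21.6% and 30.0% and holds the longest member with at least 50% covered by each replicate. The fifth, 22300001 to 22400000, was covered at 34.7% by 16 clusters of replicate 1 and 21.5% by 11 of replicate 2. It holds 21 members of the combined list, the most of any hot window, which had a median score of 0.46. It is the hot window nearest the centromere. The first 2 windows agree between replicates to within 1 percentage point, and those from 2000001 and 22300001 differ by over 10 points in opposite directions.

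**Figure D5:**
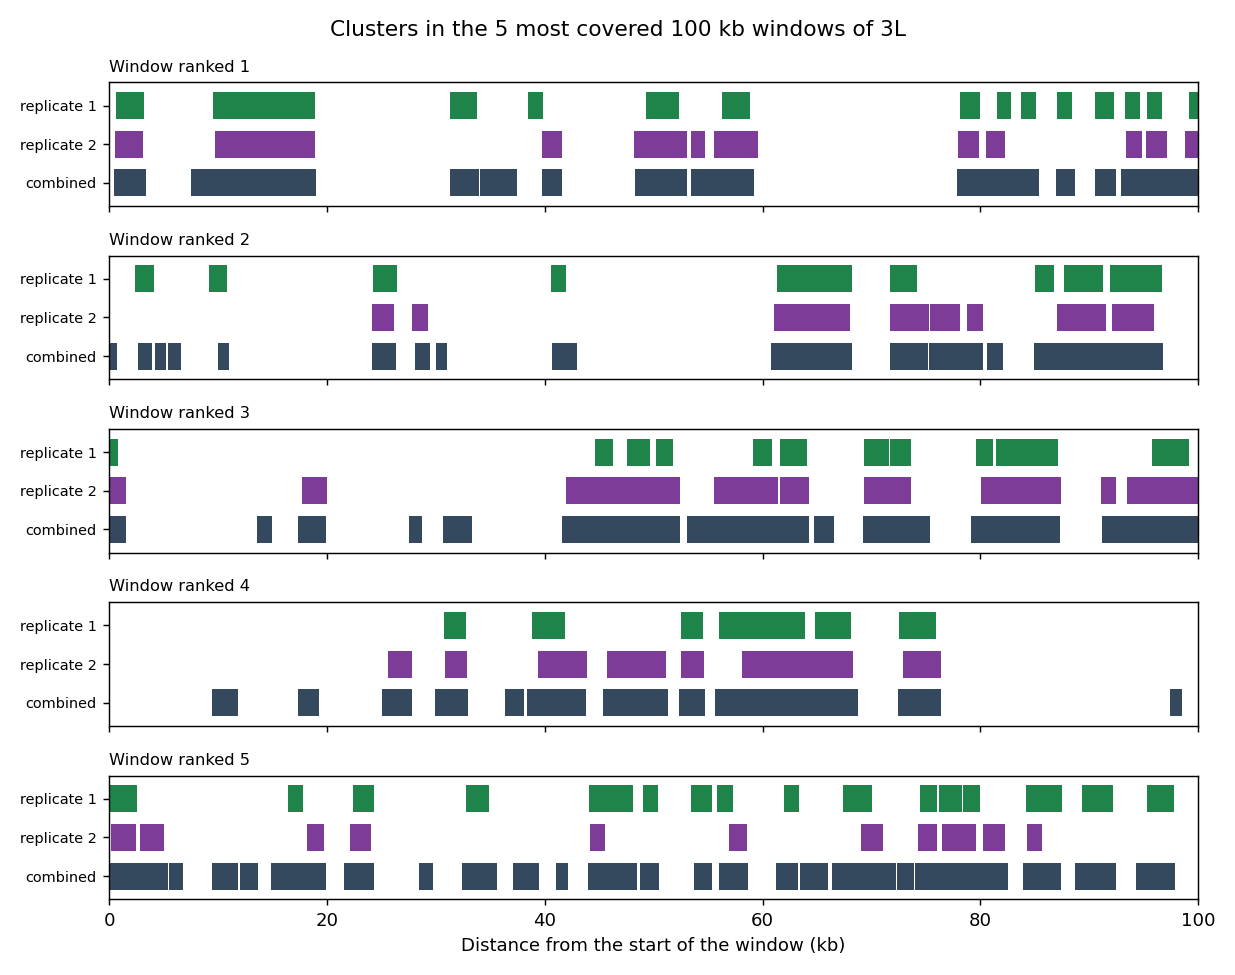
Clusters of replicate 1, replicate 2 and the combined list in the 5 most covered 100 kb windows of 3L, drawn to scale against the distance (kb) from the start of each window. In the first window a member of 11517 bp is 1 cluster in each replicate; the last of the 5 holds 21 members.

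The other 10 hot windows were spread along the stretch. They start at 1200001, 2200001 and 2800001 near the telomere side, at 8500001, 9100001, 11400001 and 11900001 further in, and at 17000001, 19100001 and 21900001 towards the centromere. The window from 11400001 had coverages of 20.9% in replicate 1 and 35.6% in replicate 2. That from 11900001 had coverages of 17.6% in replicate 1 and 24.8% in replicate 2. It holds the member from 11953093, the highest-scoring only among members that met the coverage rule in each replicate. No hot window started between those at 3400001 and 8500001.

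Cold windows formed longer runs, but there were more of them, 26 against 15, and the limits of the calls differ. The longest ran from 12300001 to 12700000, 4 windows covered at 0.858% in replicate 1 and 0.813% in replicate 2, with 12 members of which 0 were touched by both. The next ran from 18300001 to 18600000, 3 windows at 0.468% and 0.0%, with 4 members. Runs of 2 started at 10200001 and 13300001. In 11 of the 215 windows neither replicate had a covered base, and in 3 of these the combined list had none either. At 3 places a cold window bordered a hot one on its centromere side. At the first, the window from 1900001 was covered at 0.489% and 1.33% and the window from 2000001 at 25.0% and 42.3%. At the second, 13400001 was at 1.89% and 1.96% beside 13500001 at 21.6% and 30.0%. At the third, 16900001 was at 1.75% and 1.70% beside 17000001 at 18.8% and 21.0%. Finer steps showed no sharp change at these borders. Inside the first hot window, 2020001 to 2040000 had 0.0% and 0.09% covered. Inside the second, 13500001 to 13520000 had 0.0% in each replicate. At the third, coverage was 8.76% and 0.0% from 16980001 to 17000000, and 7.03% and 14.6% from 17000001 to 17020000. The contrast thus depends in part on where the windows were cut.

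The longest stretches without any combined cluster lay in or beside these cold windows. The longest ran from 12492828 to 12670540 (177713 bp), and the second from 18404592 to 18562643 (158052 bp). They were followed by 3599582 to 3720274 (120693 bp), 20593437 to 20712123 (118687 bp) and 6209376 to 6323564 (114189 bp). No cluster of either replicate lay in 4 of the 5. The stretch from 20593437 was overlapped by 1 cluster of replicate 2, which may reach in from beyond its border. These 5 are among 7 gaps of over 100 kb. Assembly gaps and repeats, to which reads cannot be assigned, were not measured, so their part in the bare stretches was not tested.

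Coverage was also taken in windows of 10 to 500 kb. The shares of hot and cold windows depend on the size by construction: 56.2% of the 2154 windows of 10 kb had no covered base in either replicate, and in windows of 500 kb none of 43 was hot or cold. Agreement of the replicates climbed over these sizes, with a Spearman's rho of 0.62 at 10 kb, 0.76 at 50 kb and 0.86 at 500 kb. Larger windows average over small shifts of cluster borders, so this climb too depends at least in part on the size by construction. Neighbouring windows stayed weakly alike, between 0.06 and 0.31 in single replicates at the 6 sizes tried. These sizes were added after the 100 kb windows had been seen.

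On a broad scale both ends of the stretch were covered more than its middle. In 7 blocks of 3 Mb, coverage was highest in the first, on the telomere side (10.7% ± 1.52, SD, n = 2), and in the last, from 19000001 (10.4% ± 0.856). It was lowest from 4000001 (5.22% ± 0.0289) and from 13000001 (5.45% ± 0.913). The blocks from 7000001, 10000001 and 16000001 lay between, at 7.95% ± 0.395, 7.32% ± 1.09 and 7.67% ± 0.0757. Member scores did not follow: block medians stayed between 0.47 and 0.50. Support did in part, with 26.8% of members touched by both in the first block, 25.8% in the last and 14.0% in the block from 13000001. The block from 4000001, which holds 0 hot windows and 4 cold ones, had 20.5%. The part of the stretch from 22000001 on filled no block and is not in these values. Windows of 100 kb there had mean coverages between 2.63% and 28.1%.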

How the data were processed

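The submitters' processing notes name Bowtie 0.12.7 for alignment, and the file headers name FlyBase release 5. The peak caller, the threshold and the construction of the combined list were not given in the sources used here. The authors deposited 1 list of clusters per ChIP replicate and 1 combined list, with a score per cluster whose scale is not stated. Each input was the control of the list with its number, per the labels. No read counts were analysed, so depth is unknown.

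Clusters were assigned by their start, and covered bases were counted inside the stretch (1 member runs past its end). A last window of under 50 kb was left out. Named regions are the 10 strongest and 5 longest members with at least 50% covered by each replicate, the 5 strongest touched by neither, the 5 most covered windows, the 5 longest cluster-free stretches and the longest window runs. The members, lists and rules were chosen with earlier results of these data known. Gene lists were not used, because the annotation at hand is on another release. Measures were tested on simulated lists. Tools were numpy 2.4.6 and scipy 1.17.1 in Python 3.11.15, with figures by matplotlib 3.10.9.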

Additional observations from a re-analysis of the deposited data

How the results depend on the processing

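Coverage of the 3L stretch moved from 7.96% to 3.99% with clusters at or above the median score of their list, 20.3% in the combined list and 8.73% over the whole arm; single replicates gave 7.59% to 8.34%. The differences from 2L (0.257 to 0.922 points in single replicates), 3R (1.42 to 1.48), X (-9.74 to -7.50) and 2R (-1.25 to -1.03) kept their sign in all 5 alternatives; in the combined list they were 1.42, 2.74, -17.5 and -2.45, and 3R gave 0.966 and 2R -0.764 with the score limit. The comparison with 2R was added after the values had been seen. In clusters per Mb the difference from 2L was 2.79 ± 3.96 and had opposite signs in the replicates. The Jaccard index was 0.303 with the score limit. The share of members touched by both was 16.1% with 50% covered, 6.95% with the score limit on the replicates and 30.2% for members of 1301 bp or more. Hot windows numbered 36 of 431 at 50 kb and 4 of 108 at 200 kb, and 20 to 26 in single replicates. Cold windows numbered 76 and 4 at these sizes, 42 with the score limit, and 38 to 44 in single replicates. The median score of members backed by both minus neither was 0.15 with 50% covered and 0.14 from 1301 bp, against 0.12, and the width difference was 1664 bp with 50% covered, against 2124 bp. The cause of these shifts was not tested. Coverage and arm differences were compared with the SD of the 2 replicates. The Jaccard index and the differences between members backed by both and neither were compared with the spread over the 5 long arms. The share touched by both was compared with its Wilson interval, and window counts with a fixed range around the main count. Of 49 alternatives, 26 stayed within these limits, 23 moved beyond them and 0 reversed. Coverage or an arm difference from a single replicate lies within the SD of the 2 by construction. Clusters per Mb were judged by the sign of the mean alone. The count that stayed is therefore no measure of robustness. No paired analysis was possible because the groups that share numbers are ChIP and input, and inputs have no list among the files used here; arm differences were taken within each replicate.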
